A study of Homo sapiens with 6 samples.

Results

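ATP-binding cassette (ABC) transporter genes were examined in Hep3B, a human hepatocellular carcinoma cell line, with and without knockout of the transcription factor RFX6. Members were all rows of the count table whose symbol begins with ABC, followed by a subfamily letter from A to G and a digit. The rule found 43 members among 16720 named rows, with 11 in subfamily A, 9 in B, 10 in C, 4 in D, 1 in E, 3 in F and 5 in G. Of these, 33 held enough counts to be tested and 10 did not. RNA was sequenced from 3 sgControl libraries, of genotype WT, and from 3 sgRFX6 libraries, of genotype RFX6 knockout. According to the study's methods, guides were delivered in the lentiviral vector lentiCRISPRv2, infected cells were selected with puromycin, and clones grown from single cells were expanded. Whether the 3 sgRFX6 libraries came from 1 clone is not said, and neither is whether the libraries of a group were separate cultures. The p-values therefore measure only the spread between these libraries, which may be technical.

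ABC proteins bind and hydrolyse ATP, and most of them use that energy to move a substrate across a membrane. In the liver, members of subfamilies B, C and G sit on the canalicular face of the hepatocyte and export bile salts, phospholipid, sterols and conjugated drugs into bile. Several of the same exporters lower the level of chemotherapeutic drugs inside tumour cells, whereas subfamily A mostly moves lipids, subfamily D serves peroxisomes and lysosomes, and subfamilies E and F have no membrane domain and act at the ribosome.

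Library totals were 20325259, 25070770 and 23094970 counts for sgControl, and for sgRFX6 they were 20814797, 16730374 and 20480848 counts. Levels are given in CPM, counts relative to library sizes scaled by TMM, and 3 counts corresponded to 0.122 to 0.189 CPM. RFX6 itself measured 5.64, 5.83 and 7.34 CPM in sgControl libraries 1 to 3 and 3.43, 3.71 and 3.50 CPM in sgRFX6 libraries 1 to 3. The groups did not overlap, but the log2 fold change of -0.82 did not pass the test (adjusted p = 0.142, edgeR quasi-likelihood test with Benjamini-Hochberg adjustment). An RNA level does not show whether a frameshift is present. The 7 hepatocyte lineage markers summed to between 109.7 and 141.0 CPM in sgControl and between 64.8 and 105.7 CPM in sgRFX6. Within that list, APOB measured 60.6 to 76.4 CPM in sgControl, the highest there, and 15.9 to 46.1 CPM in sgRFX6. ALB was at 12.9 to 32.1 CPM over the 6 libraries. TTR and GPC3 stayed at or below 1.89 CPM and AFP at or below 17.2 CPM in all 6 libraries. These are low levels for markers of the labelled lineage. AFP was higher in sgRFX6 (log2 fold change 2.82, adjusted p = 0.00254) and FGB was lower (-2.45, adjusted p = 0.00417). In the fibroblast list COL1A2 was lower, at 1.82 to 1.93 CPM in sgControl and 0.0993 to 0.182 CPM in sgRFX6 (-3.71, adjusted p = 0.00276). COL1A2 held enough counts to be tested only through its sgControl libraries, where it was higher, so the call carries little weight. Its sgRFX6 values lay near the level of 3 counts. The sum of the fibroblast list was carried by LUM, at 16.8 to 24.95 CPM and 19.5 to 54.7 CPM (0.63, adjusted p = 0.530). Of the other markers, the biliary list (4 of 4 in the table) summed to 606.4 to 975.8 CPM in sgControl and 415.6 to 758.4 CPM in sgRFX6, the fibroblast list (4 of 4) to 19.3 to 28.3 and 20.2 to 55.3 CPM, the endothelial list (2 of 3) to 11.6 to 13.5 and 13.3 to 19.6 CPM, and the leukocyte list (3 of 4, with CD3E at the floor) to 0.820 to 2.96 and 0.377 to 1.41 CPM. The biliary sum was carried by KRT19, at 594.4 to 956.0 CPM in sgControl and 406.8 to 749.5 CPM in sgRFX6. KRT7, SOX9 and EPCAM stayed at or below 15.8 CPM in all 6 libraries. The part of these marker levels in the results below was not tested. In RNA from whole cultures, fewer cells expressing a gene and less RNA per cell cannot be told apart.

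The knockout columns are named for guide sg3 of the study. It is printed here with the closest sites followed by an NGG motif in the annotated transcripts of the 3 members that passed the test, because these show how far the called members are from the guide. Capitals mark mismatches to the guide, and all sequences run 5′ to 3′.
RFX6 guide sg3: gtgaaggagtttgcttacca
ABCC1: gtgGGAgGCttGgTttacca
ABCG2: TtACaggagttAActGaGcT
ABCA4: gtTCaggGgttGgctAaTGa
The closest site had 7 mismatches in ABCC1 and ABCA4 and 8 in ABCG2. Over the transcripts of all 43 members the closest sites had 7 to 9 mismatches, with 10 members at 7. Introns were not searched.

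Across the subfamilies, 3 of 33 tested members changed between the groups. ABCC1 and ABCG2, both drug exporters, were higher in sgRFX6, and ABCA4, a retinoid lipid transporter, was lower. That is 9.09% of the tested members, against 3.74% of all 12839 genes tested (480 genes), of which 1.92% were higher and 1.81% lower. Among tested members, 8 (24.2%) had groups that did not overlap, 4 in each direction, beside 23.1% of all tested genes, so the share without overlap was near the background. An unadjusted p under 0.05 was reached by 6 members, beside 15.6% of all genes. The median log2 fold change was 0.09 over the tested members and 0.02 over all tested genes. On the log2 scale, 25 members lay within 0.5 of no change and 5 moved by 1 or more.

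**Figure D1:**
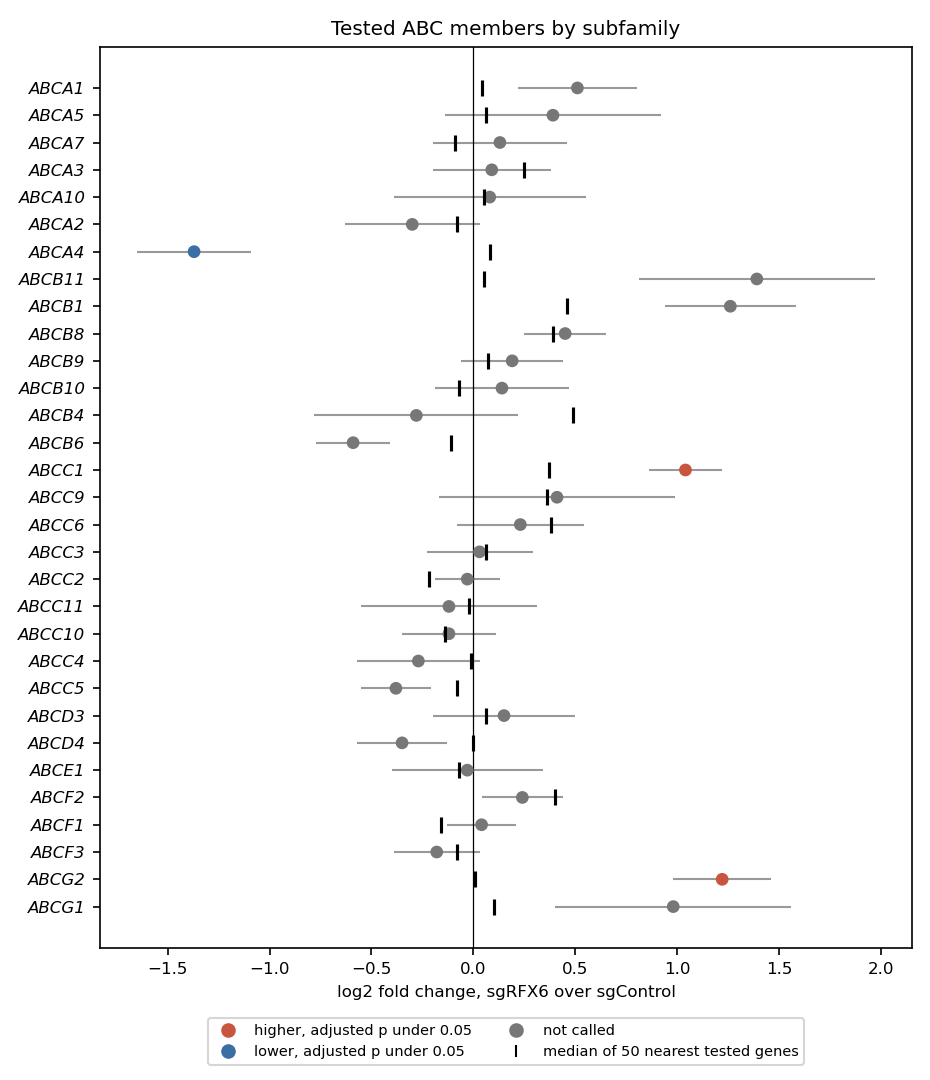
Log2 fold change of sgRFX6 over sgControl (x axis) for 31 of the 33 tested ABC members, ordered by subfamily, with bars for the standard error, and a black tick for the median of the 50 genes that lie closest on the chromosome. ABCC1 and ABCG2 (red) lie above 1 and ABCA4 (blue) below -1, whereas the other members shown (grey) did not pass the test.

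ABCC1 encodes MRP1, an exporter of glutathione conjugates and of several anticancer drugs, at chr16:15949577-16143074 on the plus strand of GRCh38. Its level was 168.9, 150.7 and 185.6 CPM in sgControl libraries 1 to 3, compared with 370.6, 380.2 and 288.9 CPM in sgRFX6 libraries 1 to 3. Every sgRFX6 library exceeded every sgControl library, and the lowest of them was library 3. The means were 168 ± 17.5 and 347 ± 50.2 CPM (SD, n = 3 each), a ratio of 2.06. The log2 fold change was 1.04 ± 0.18 (SE, edgeR adjusted p = 0.0146), and the exact permutation p of 0.1 is the smallest that 3 against 3 libraries allow. The call held without sgControl library 3 (adjusted p = 0.0453) and without sgRFX6 library 3 (0.00626). It was lost without sgControl library 1 (0.0657), sgControl library 2 (0.0518), sgRFX6 library 1 (0.0791) or sgRFX6 library 2 (0.0552), while the log2 fold change stayed between 0.96 and 1.16. Around ABCC1, the median over the 50 tested genes closest on the chromosome, here called the regional median, was 0.37 on the log2 scale. After its subtraction the log2 fold change of ABCC1 was 0.68 and did not pass the test (adjusted p = 0.0963).

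Its neighbour ABCC6, an exporter mutated in pseudoxanthoma elasticum, lies at chr16:16148928-16223522 on the minus strand. It measured 9.64, 18.4 and 11.0 CPM in sgControl and 17.8, 16.6 and 11.5 CPM in sgRFX6. The groups overlapped, and the log2 fold change of 0.23 ± 0.31 did not pass the test (adjusted p = 0.822), with a regional median of 0.38. The ratio of ABCC1 to ABCC6 counts was 17.5, 8.18 and 16.9 in sgControl and 20.8, 22.9 and 25.2 in sgRFX6. ABCC6 has near-identical pseudogene copies, so its counts are uncertain.

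ABCG2 encodes the breast cancer resistance protein, which exports drugs, urate and porphyrins, at chr4:88090264-88231322 on the minus strand. It measured 49.97, 35.5 and 45.4 CPM in sgControl and 88.8, 79.9 and 136.1 CPM in sgRFX6. The groups did not overlap, and sgRFX6 library 3 was the highest. The means were 43.6 ± 7.39 and 102 ± 30.2 CPM (SD, n = 3), a ratio of 2.33, and the log2 fold change was 1.22 ± 0.24 (edgeR adjusted p = 0.0283). The regional median was 0.01. Leaving out sgRFX6 library 3 lowered the log2 fold change to 0.96 with the call kept (adjusted p = 0.0240), and it was kept also without sgRFX6 library 2 (0.0317). The call was lost without sgControl library 1 (0.0544), sgControl library 2 (0.0952), sgControl library 3 (0.112) or sgRFX6 library 1 (0.0711), and when library sizes were not scaled (0.0546).

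The sequence before the ABCG2 start is printed because this is the one called member that rose and has a promoter entry in the RefSeq table (GRCh38.p14), together with that of ABCB6, which holds the letters GTTGCC, a single arm of the RFX motif. Each line gives bases 250 to 61 before the start, and capitals mark matches to GTTGCC and to TGACNNNGC, the core of the antioxidant response element. The start is that of the RefSeq entry, which for both genes differs from the end of the gene position given in this report. Alternative starts were not searched.
ABCG2, chr4:88231687-88231876, minus strand: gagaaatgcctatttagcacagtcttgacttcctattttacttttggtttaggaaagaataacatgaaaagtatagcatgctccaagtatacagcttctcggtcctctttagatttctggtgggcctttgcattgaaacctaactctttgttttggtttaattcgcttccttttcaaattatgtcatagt
ABCB6, chr2:219219019-219219208, minus strand: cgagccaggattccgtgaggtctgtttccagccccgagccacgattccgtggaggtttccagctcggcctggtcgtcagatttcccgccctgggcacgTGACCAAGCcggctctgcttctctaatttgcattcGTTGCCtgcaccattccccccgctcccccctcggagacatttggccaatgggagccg
In the 250 bases before the start, on either strand, GTTGCC occurred in 3 of the 34 members with an entry (ABCA13, ABCB6 and ABCC11) and in 10.1% of all 27305 promoters, so the share of members was near the background. The full RFX palindrome with both arms, which can overlap GTTGCC, occurred in 0 members and in 0.41% of all promoters. TGACNNNGC occurred in 6 members (ABCA2, ABCA3, ABCB6, ABCC4, ABCD4 and ABCF1) and in 11.0% of all promoters. GCGTG, the core of the xenobiotic response element, occurred in 12 members and in 31.9% of all promoters. The GC box GGGCGG occurred in 18 members and in 42.3% of all promoters, and the TATA box TATAAA in 5 members and in 11.1%. The ABCG2 window was 40.0% GC with 2 CpG dinucleotides and the ABCB6 window 64.4% GC with 20, and the member median was 62.0% GC against 58.0% over all promoters. Members without an entry included ABCA4, ABCB4, ABCB5, ABCC1, ABCC3, ABCC8 and ABCG1.

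ABCB1 encodes P-glycoprotein, the best known multidrug exporter, at chr7:87503633-87713323 on the minus strand. It measured 14.3, 13.6 and 8.76 CPM in sgControl and 27.0, 19.9 and 40.8 CPM in sgRFX6. The groups did not overlap, and sgRFX6 library 3 was again the highest. The means were 12.2 ± 3.02 and 29.2 ± 10.7 CPM (SD, n = 3), and the log2 fold change of 1.26 ± 0.32 did not pass the test (edgeR adjusted p = 0.0742). The regional median was 0.46, and after the regional correction ABCB1 was at 0.80 (adjusted p = 0.330). ABCB1 passed the test by DESeq2 (adjusted p = 0.00502), which called 6.97% of all genes and 4 members, and by limma-voom with quality weights (0.000501), which called 31.1% of all genes and 14 members. It also passed with the GC correction (0.0128), where 11.4% of all genes and 5 members were called, and with the replicate block (0.0259), where 5.05% of all genes and 4 members were called. It passed in none of the 6 fits that left out a library, where the adjusted p ran from 0.0531 to 0.268.

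ABCB4, the phospholipid exporter that lies beside ABCB1 at chr7:87401697-87480435, measured 1.78, 5.39 and 1.90 CPM in sgControl and 3.63, 1.95 and 1.91 CPM in sgRFX6. Its groups overlapped, with sgControl library 2 the highest, and the log2 fold change was -0.28 ± 0.50 (adjusted p = 0.873). The counts of ABCB1 were 8.03, 2.53 and 4.61 times those of ABCB4 in sgControl and 7.45, 10.2 and 21.4 times in sgRFX6.

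ABCC2, which encodes MRP2 and carries bilirubin glucuronide into bile, was the member with the most counts per kilobase of exon in both groups. Its level was 781.7, 645.3 and 727.8 CPM in sgControl and 708.6, 673.3 and 728.8 CPM in sgRFX6. The groups overlapped, with means of 718 ± 68.7 and 704 ± 28.1 CPM, and the log2 fold change was -0.03 ± 0.16 (adjusted p = 0.965). Expressed per kilobase of exon, ABCC1 was at 0.224, 0.242 and 0.264 of ABCC2 in sgControl and at 0.541, 0.584 and 0.410 in sgRFX6, so all 3 sgRFX6 libraries lay above the sgControl libraries. ABCC1 moved from rank 8 to rank 4 of the members by CPM per kilobase, and ABCG2 from 14 to 8.

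The bile salt and sterol exporters were close to silent. ABCB11, the bile salt export pump, held 10, 8 and 3 counts in sgControl, compared with 11, 9 and 29 in sgRFX6. Its CPM values did not overlap, with 0.482, 0.324 and 0.130 against 0.546, 0.566 and 1.32 CPM, and the log2 fold change of 1.39 ± 0.58 did not pass the test (adjusted p = 0.289). Of the 16 alternatives that gave it a value, limma-voom alone called ABCB11 (1.48, adjusted p = 0.0270). The sterol exporter pair ABCG5 and ABCG8 was at the floor, with 0 counts in every sgControl library and 1, 1 and 2 in sgRFX6 for ABCG5, and 0, 3 and 0 against 1, 3 and 1 counts for ABCG8. Of the 7 canalicular exporters, 5 were tested, 1 was higher (ABCG2) and 0 were lower. Their log2 fold changes were -0.28 (ABCB4), -0.03 (ABCC2), 1.22 (ABCG2), 1.26 (ABCB1) and 1.39 (ABCB11), so they did not move together. ABCB11 passed the filter on low counts only through its sgRFX6 libraries, where it was higher.

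**Figure D2:**
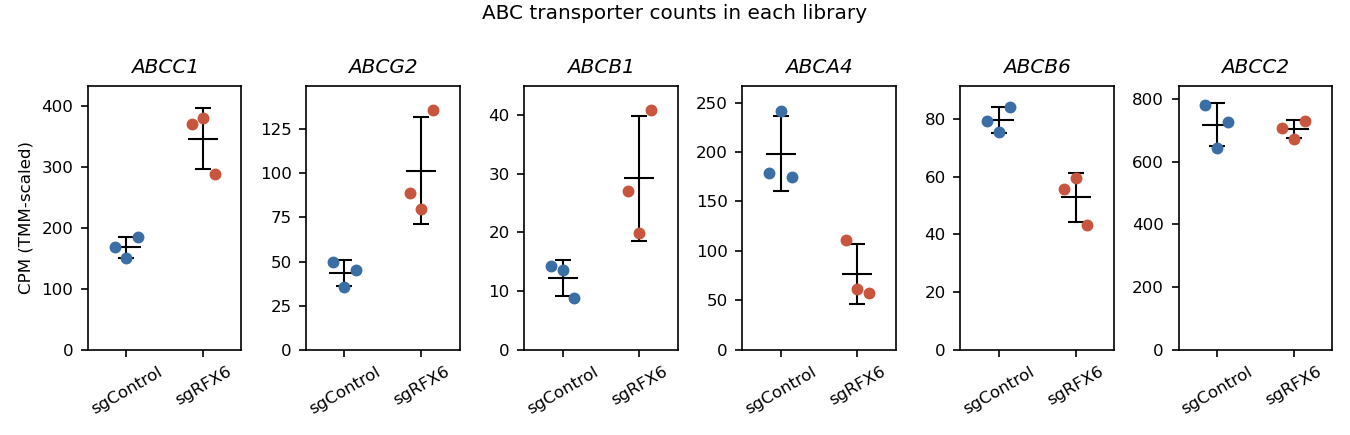
CPM on TMM-scaled library sizes (y axis, from 0) of 6 ABC members in the 3 sgControl (blue) and 3 sgRFX6 (red) libraries, with a horizontal line at the mean and bars for 1 SD. Points of ABCC1, ABCG2 and ABCB1 lie higher in sgRFX6 and those of ABCA4 and ABCB6 lower, without overlap, while ABCC2 overlaps.

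Besides ABCC1, the list of ABCC exporters and sulfonylurea receptors, which leaves out ABCC2, held 7 tested members, and none of these passed the test. With ABCC1 the median log2 fold change of the 8 was -0.04. ABCC3, encoding MRP3, the basolateral exporter of glucuronides, measured 287.1, 543.5 and 304.8 CPM in sgControl and 438.7, 386.5 and 337.1 CPM in sgRFX6. The sgControl libraries spanned the sgRFX6 libraries, and its log2 fold change was 0.03 (adjusted p = 0.974). ABCC5, encoding MRP5, an exporter of cyclic nucleotides, measured 130.2, 118.4 and 116.3 CPM against 106.3, 94.5 and 79.5 CPM. Its groups did not overlap, but the log2 fold change of -0.38 ± 0.17 did not pass the test (adjusted p = 0.326).

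ABCC4, the exporter MRP4, was at -0.27 on the log2 scale (adjusted p = 0.766), with 17.1 to 21.7 CPM in sgControl and 10.4 to 22.6 CPM in sgRFX6. ABCC10 (-0.12, adjusted p = 0.890) and ABCC11 (-0.12, adjusted p = 0.945) overlapped as well. ABCC9, a regulatory subunit of potassium channels, measured 5.35, 4.66 and 4.14 CPM in sgControl and 2.43, 3.14 and 13.1 CPM in sgRFX6. Its sgRFX6 libraries fell on both sides of sgControl (log2 fold change 0.41 ± 0.58, adjusted p = 0.830), and without library 3 of sgRFX6 the log2 fold change was -0.75. ABCC8, the related subunit of pancreatic islet cells, where RFX6 is known for its part in beta-cell development, held 0 or 1 count in every library.

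ABCA4, the lipid transporter that clears retinaldehyde from photoreceptor discs, lies at chr1:93992835-94121132 on the minus strand. It measured 179.2, 241.9 and 174.3 CPM in sgControl and 111.4, 61.4 and 57.0 CPM in sgRFX6. No sgRFX6 library reached the sgControl range, and library 1 came nearest to it. The means were 198 ± 37.7 and 76.6 ± 30.2 CPM (SD, n = 3), a ratio of 0.386, and the log2 fold change was -1.37 ± 0.28 (edgeR adjusted p = 0.0301). The regional median was 0.08, and after the regional correction it was at -1.45 (adjusted p = 0.0267). The call held without sgControl library 1 (0.0491), sgRFX6 library 1 (-1.74, 0.0160) and sgRFX6 library 3 (0.0478). It was lost without sgControl library 2 (0.0990), sgControl library 3 (0.0687) or sgRFX6 library 2 (0.0994). By CPM per kilobase of exon it moved from 23.3 to 8.98, and from rank 7 to rank 14.

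Among the other lipid transporters no member passed the test. The list of ABCA and ABCG lipid transporters, which excludes the canalicular genes, had 8 tested members, with 0 higher, 1 lower (ABCA4) and a median of 0.11. ABCA1, which loads cholesterol onto apolipoprotein A-I, measured 42.2, 39.98 and 37.5 CPM in sgControl and 56.3, 33.5 and 80.6 CPM in sgRFX6. The sgRFX6 libraries lay on both sides of the tight sgControl range, and the log2 fold change was 0.51 ± 0.29 (adjusted p = 0.471). ABCG1, its partner in cholesterol efflux, measured 3.04, 12.7 and 3.41 CPM against 18.8, 6.85 and 12.2 CPM. Library 2 of sgControl reached into the sgRFX6 range, and the log2 fold change of 0.98 ± 0.58 did not pass the test (adjusted p = 0.490). Without that library it was 1.96, and the test was still not passed (adjusted p = 0.0761).

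ABCA2, a sterol and sphingolipid transporter of late endosomes, was the subfamily A member with the most counts per kilobase. It measured 295.3, 655.0 and 318.8 CPM in sgControl and 413.1, 372.4 and 246.4 CPM in sgRFX6, with library 2 of sgControl far above the others. The log2 fold change was -0.30 ± 0.33 (adjusted p = 0.763), and 0.16 without that library. ABCA7, a phospholipid transporter known from Alzheimer's disease genetics, measured 66.1, 148.4 and 72.6 CPM against 128.1, 110.4 and 76.1 CPM, and again library 2 of sgControl was the highest (0.13, adjusted p = 0.918). ABCA3, the surfactant lipid transporter, was at 0.09 (adjusted p = 0.943), ABCA5 at 0.39 (adjusted p = 0.821) and ABCA10 at 0.08 (adjusted p = 0.966).

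Mitochondrial and lysosomal members of subfamily B, which work as dimers, included no called gene among 5 tested, with a median of 0.14. ABCB6, a porphyrin transporter, lies at chr2:219209766-219219017 and measured 79.1, 75.5 and 84.1 CPM in sgControl and 55.6, 59.4 and 43.2 CPM in sgRFX6. The groups were tight and did not overlap, with means of 79.6 ± 4.34 and 52.7 ± 8.44 CPM and a ratio of 0.663. The log2 fold change of -0.59 ± 0.18 did not pass the test (adjusted p = 0.134), whereas the GC correction (-0.55, adjusted p = 0.0364) and limma-voom (0.00176) called it. The annotation gives 54.7% of the ABCB6 exon bases also to AC068946.2 on the same strand, so its counts may be split or shared.

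ABCB8, a mitochondrial potassium channel subunit, measured 61.5, 59.1 and 67.7 CPM in sgControl and 89.8, 103.2 and 64.6 CPM in sgRFX6. Only library 3 of sgRFX6 reached into the sgControl range, and the log2 fold change was 0.45 ± 0.20 (adjusted p = 0.339). The regional median was 0.39, and the regional correction left 0.06. Without sgRFX6 library 3 it passed (0.63, adjusted p = 0.0468). ABCB9, a lysosomal peptide transporter, and ABCB10, a mitochondrial protein of haem synthesis, had log2 fold changes of 0.19 and 0.14 and adjusted p-values of 0.812 and 0.916.

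In subfamily D, which imports fatty acids into peroxisomes and handles cobalamin in lysosomes, 0 of 3 tested members passed, with a median of 0.15. ABCD4, the lysosomal cobalamin transporter, measured 23.2, 28.5 and 23.1 CPM against 20.8, 22.1 and 15.7 CPM. These did not overlap, yet the log2 fold change of -0.35 ± 0.22 did not pass the test (adjusted p = 0.524). ABCD3 was at 0.15 (adjusted p = 0.909).

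The 4 ABCE and ABCF genes, whose proteins act in ribosome recycling and translation, held no called gene and had a median of 0.01. ABCE1, the ribosome recycling factor, measured 165.5, 77.4 and 126.3 CPM in sgControl and 92.1, 78.6 and 190.4 CPM in sgRFX6. Both groups ran over the same range, and the log2 fold change was -0.03 ± 0.37 (adjusted p = 0.983). ABCF2 measured 186.7, 144.2 and 195.4 CPM against 216.8, 241.2 and 165.2 CPM (0.24 ± 0.20, adjusted p = 0.650), and 45.8% of its exon bases are also annotated to AC021097.2. ABCF1 and ABCF3 were at 0.04 and -0.18 (adjusted p = 0.950 and 0.771).

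Among the 10 members not tested, 8 (ABCA9, ABCA12, ABCA13, ABCC8, ABCD2, ABCG4, ABCG5 and ABCG8) had at most 3 counts in every library. ABCA6 had 0 to 4 counts. ABCB5, a marker of some melanoma and stem cells, held 4, 39 and 6 counts in sgControl, compared with 0 in every sgRFX6 library. Against a floor of 3 counts per library this was at least 4.29-fold lower in sgRFX6, and at least 1.43-fold lower without sgControl library 2, which held most of the counts. When the gene was kept by a laxer filter it did not pass the test (adjusted p = 0.0593 without a filter).

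**Figure D3:**
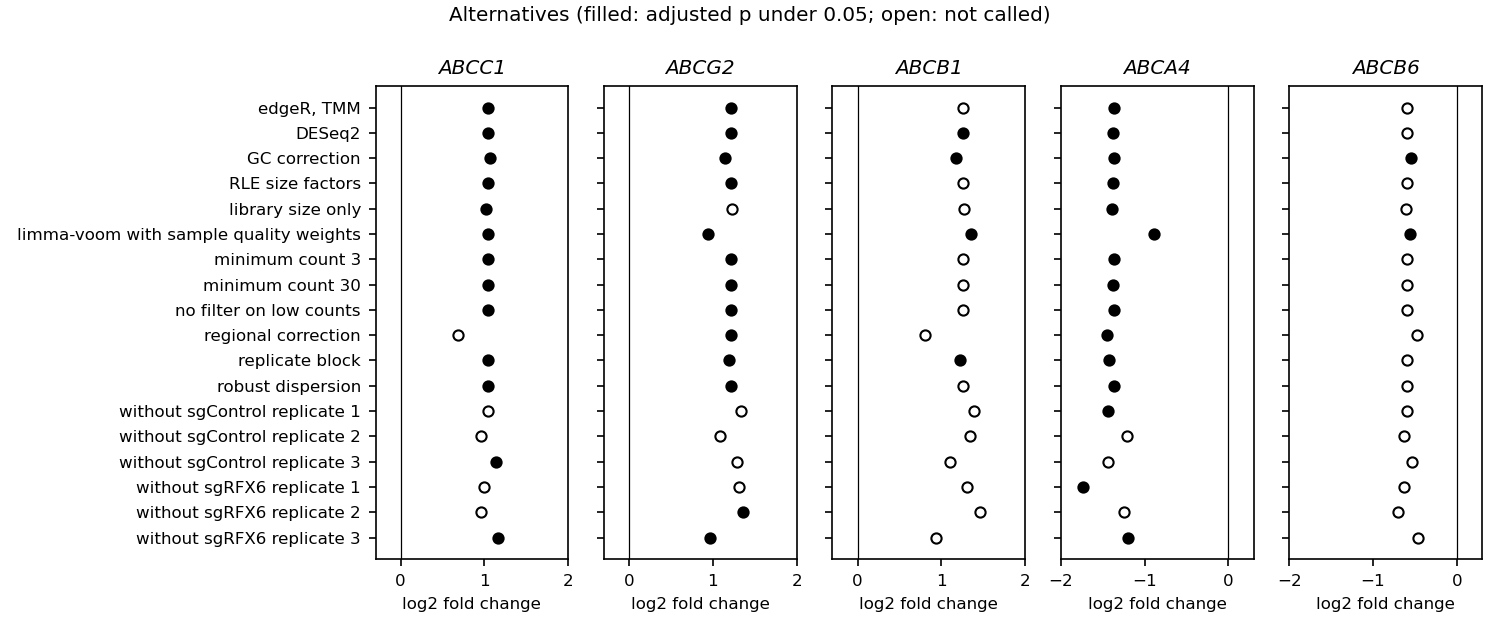
Log2 fold change (x axis) of 5 ABC members under the main fit, edgeR with TMM, and 17 other settings (y axis), with filled circles where the adjusted p was under 0.05 and open circles where it was not. ABCC1 and ABCG2 stay above 0 in every setting and lose the call in 5 of 17, ABCA4 stays below 0 and loses it in 3, and ABCB1 is called in 4.

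The spread of the members within groups followed base composition, so it is given beside the results above. For each library, the log2 difference of the 33 tested members from the other libraries of its group was set against the GC content of their transcripts, which ran from 33.11% (ABCA5) to 65.83%. Spearman's rho was -0.61, 0.51 and -0.08 in sgControl libraries 1 to 3 and 0.70, 0.71 and -0.89 in sgRFX6 libraries 1 to 3. Over 12002 tested genes with a GC value it was -0.57, 0.41, 0.05, 0.66, 0.73 and -0.85, so the members followed all genes. These are descriptions across genes of single libraries, which share the libraries and are not independent. ABCG2 (41.24% GC) and ABCB1 (43.11% GC), both highest in sgRFX6 library 3, were low in GC, and the log2 fold changes after a GC correction were 1.14 and 1.18.

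**Figure D4:**
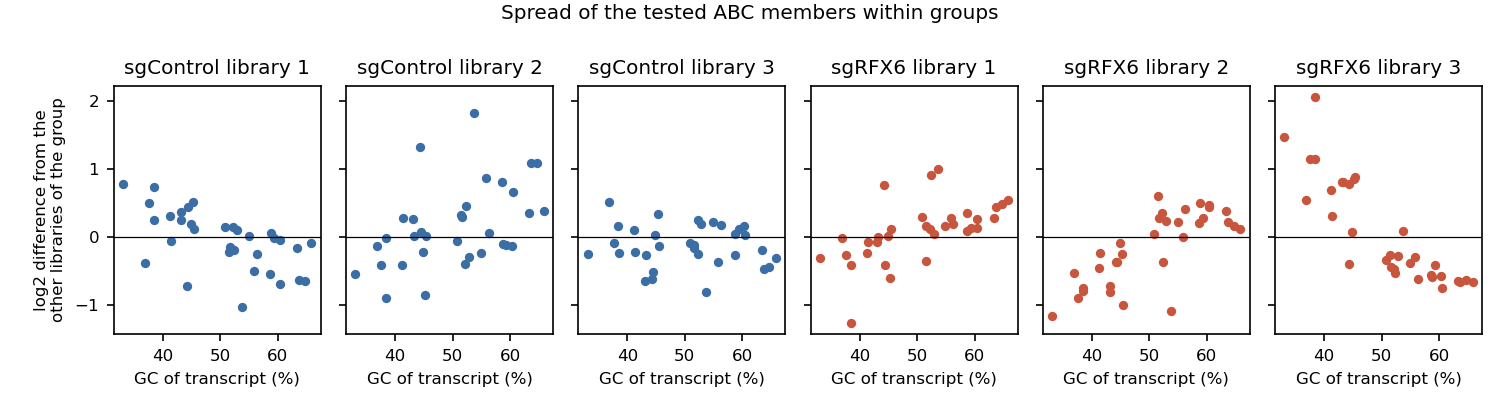
GC content of the transcript in percent (x axis) against the log2 difference of a library from the other libraries of its group (y axis) for the 33 tested ABC members, one panel per library, sgControl in blue and sgRFX6 in red. Points rise with GC in sgControl library 2 and sgRFX6 libraries 1 and 2 and fall with it in sgControl library 1 and sgRFX6 library 3.

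The genes that serve the same traffic were taken from further lists. Of 12 liver uptake transporters and carriers 6 were tested, of which SLC51B was higher and SLC47A1 lower, with a median log2 fold change of 0.03. Over all genes tested, 3.74% were called. SLC47A1, the organic cation exporter MATE1, fell from 13.3, 17.3 and 11.7 CPM to 4.62, 3.71 and 4.18 CPM (-1.75 ± 0.26, adjusted p = 0.00805), without overlap, and stayed called in 6 of 6 fits that left out a library. SLC51B, a subunit of the basolateral bile acid exporter, rose from 0.771, 1.58 and 1.34 CPM to 6.51, 5.15 and 3.73 CPM (2.05 ± 0.38, adjusted p = 0.0203), with the call kept in 2 of 6. The adjusted p for it was between 0.0190 and 0.0904 over those fits.

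Of 18 receptors and factors that control ABC genes, 14 were tested and 1 was called, beside 3.74% of all genes tested. That was NR1H4, the bile acid receptor FXR, which measured 0.193, 0.203 and 0.130 CPM in sgControl and 1.09, 0.754 and 0.999 CPM in sgRFX6, from 3 to 5 counts per library against 12 to 22. Its log2 fold change of 2.41 ± 0.44 passed the test (adjusted p = 0.0203), in 3 of 6 fits that left out a library (adjusted p 0.0416 to 0.105). NR1H4 passed the filter on low counts only through the sgRFX6 libraries, where it was higher, so the call carries little weight. With a minimum count of 30, 0 genes of this list were called, but that filter removed NR1H4, so NR1H4 was not tested there. The other factors did not pass, including the xenobiotic receptor NR1I2 (0.87, adjusted p = 0.270), the oxidative stress factor NFE2L2 (-0.07, adjusted p = 0.964), AHR (0.28, adjusted p = 0.718) and HNF4A (-0.27, adjusted p = 0.494). Of 15 protein partners, 14 were tested and 1 was called, again beside 3.74% of all genes tested. That was PDZK1, a scaffold that anchors exporters at the apical membrane. It measured 10.4, 18.3 and 10.8 CPM in sgControl and 37.3, 27.6 and 40.5 CPM in sgRFX6 (1.42 ± 0.29, adjusted p = 0.0297), and the call was kept in 3 of 6 fits.

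**Figure D5:**
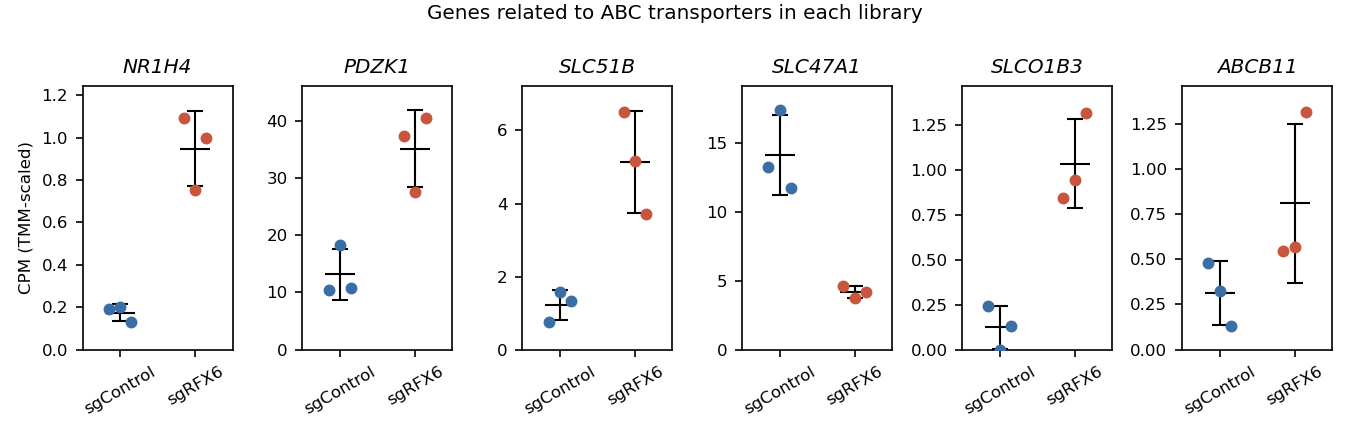
CPM on TMM-scaled library sizes (y axis, from 0) of genes related to ABC transporters and of ABCB11 in the 3 sgControl (blue) and 3 sgRFX6 (red) libraries, with a horizontal line at the mean and bars for 1 SD. NR1H4, PDZK1 and SLC51B lie higher in sgRFX6 and SLC47A1 lower. SLCO1B3, an uptake carrier at 0 to 0.241 CPM in sgControl and 0.844 to 1.32 CPM in sgRFX6, and ABCB11 did not pass the test. NR1H4, SLCO1B3 and ABCB11 passed the filter on low counts only through the sgRFX6 libraries, where they were higher.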

How the data were processed

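Raw counts per gene for 3 sgControl and 3 sgRFX6 libraries of Hep3B were used as deposited by the authors, in 1 table of 16721 rows. RNA was isolated with Trizol and sequenced on an Illumina instrument. The submitters' processing notes name GRCh38 (hg38) as the genome build, and the aligner and counting program are not given in the sources used here. The control columns are named cas, without a guide, and were taken as sgControl, the study's control group. A row without a gene name, at most 9.17e-05% of a library, was left out.

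Counts were fitted with edgeR 4.0.16 in R 4.3.3 over 12839 genes that passed filterByExpr (minimum count 10, minimum total 15), with TMM scaling and the quasi-likelihood test. Benjamini-Hochberg adjustment covered all of these genes, at a threshold of 0.05. Alternatives used DESeq2 1.42.0, limma 3.58.1 (voom with sample quality weights), other scalings and filters, a replicate block, a GC correction, subtraction of the median of the 50 nearest genes, and omission of each library. The edgeR and limma-voom fits were tested on simulated counts, which lacked the GC trend of the real libraries. There edgeR recovered 100% of the changes of 2 on the log2 scale and 35.8% of the changes of 1. The other alternatives were not tested in this way. Gene positions came from GENCODE 29 on GRCh38, matched by symbol for 15422 rows, and promoters from RefSeq. Antisense and overlapping genes cannot be told apart where the counting did not use strand, which is not given here. Members and lists were chosen with earlier results of these data known.

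Genes were named by a rule: the called members, the canalicular exporters, the most abundant member of each subfamily, members whose groups did not overlap and that moved by at least 0.5 on the log2 scale, and called genes of the other lists. Other genes and their details were chosen after their values were seen. Some members enter the totals and are not reported here by name. Values after ± are SDs between libraries or standard errors of the edgeR fit, and the floor of 3 counts covers counting error only.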

Additional observations from a re-analysis of the deposited data

How the results depend on the processing

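Of 12839 genes tested, 480 were called by edgeR, and the count was 895 by DESeq2, 1364 with the GC correction and 3998 with limma-voom and sample quality weights, and 212 to 718 when a library was left out. Members called higher numbered 2, but 1 when libraries were not scaled or the regional median was subtracted, 11 with limma-voom, and 0 to 3 with a library left out. Members called lower numbered 1, but 2 with the GC correction, 3 with limma-voom, and 0 to 1 with a library left out. The share of higher calls was 51.5% and ranged from 38.2% to 60.2% with a library left out. Of the 33 tested members, 18 turned direction in at least 1 alternative, of which 0 were called by edgeR and none had moved by more than 0.41 on the log2 scale. Among the members named by the rule, the direction turned for ABCA2 with limma-voom (0.29) and with a library left out (-0.50 to 0.16). It turned also for ABCB4 with limma-voom (0.66) and with a library left out (-0.65 to 0.44). For ABCC2 the direction turned after the regional correction (0.19) and with a library left out (-0.10 to 0.03). The same held for ABCE1 (0.04 after the regional correction, -0.52 to 0.24 with a library left out). ABCF2 turned after the regional correction (-0.15). The cause was not tested. Whether the replicate numbers pair the libraries is not stated in the sources used here. Deviations from the group means correlated at -0.41, 0.17 and -0.09 between same-numbered libraries, and sgControl 1 correlated best with sgRFX6 3 (0.57). Because the spread within groups followed GC content, these correlations cannot decide the pairing. The fit with a replicate block called 648 genes and, among members, 3 higher, adding ABCB1, and 1 lower. ABCG5 and ABCG8, at 3 counts or fewer per library, were not tested, and a difference was not detectable at this depth.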

Other observations

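Members took 0.317% to 0.366% of the counts of a library. Within the members' own counts, which do not depend on the scaling of library sizes, ABCC1 took 5.27%, 4.06% and 5.88% in the sgControl libraries and 9.89%, 10.9% and 8.96% in the sgRFX6 libraries. ABCG2 took 1.56%, 0.956% and 1.44% against 2.37%, 2.29% and 4.22%, and ABCA4 took 5.59%, 6.51% and 5.52% against 2.97%, 1.76% and 1.77%. The groups did not overlap for these 3 genes on this scale either, which is a description of the same counts as in the report. ABCC2 alone took 17.4% to 24.4%.

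The ABC genes with other names held no called gene among 2 tested. TAP1 and TAP2, which carry peptides for antigen presentation, had log2 fold changes of 0.15 (edgeR adjusted p = 0.887) and -0.14 (adjusted p = 0.846), and CFTR, a chloride channel, was at or below 0.0629 CPM in every library.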
